A study of Homo sapiens with 2 samples.

Results

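The circadian clock genes described here are NPAS2, CLOCK, BMAL1, PER1, PER2, PER3, CRY1, CRY2, NR1D1 and NR1D2, 10 of the 20046 genes with probes in the annotation of the array. They were taken as a set by gene symbol, with every probe of each gene, which gave 15 of 47323 probes. BMAL1 carries the older symbol ARNTL. The set was chosen on the measured difference of NPAS2, which was already known to be among the genes furthest below the control on these arrays, so that difference is given as a description and supports nothing.

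Expression was measured on Illumina BeadChips in SNU216 cells, a human line established from gastric cancer. The TEAD4 knockdown cells (labelled TEAD4 KD) gave 1 array and the control cells, which carried a non-silencing shRNA, gave 1 array. TEAD4 is a DNA-binding partner of the Hippo pathway cofactors YAP and TAZ. The labels name neither the hairpin sequence, the promoter that drives it nor whether either line is a single clone, and they give no time of harvest and no treatment to align the rhythm of the cells. With 1 array a group there is no estimate of the spread between cultures and no test, so each difference compares 2 arrays, and harvest time, culture and array cannot be told apart from the knockdown.

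The mammalian clock is a feedback loop of transcription. BMAL1 pairs with CLOCK, or with its close relative NPAS2, through basic helix-loop-helix and PAS domains, and the pairs bind E-box sequences to activate the PER, CRY and NR1D genes. PER and CRY proteins return to the nucleus and block the activators, while NR1D1 and NR1D2, the heme-binding receptors REV-ERB alpha and beta, repress BMAL1 through RORE sequences. Output runs partly through the PAR bZIP factors DBP, TEF and HLF, which bind D-box sequences, and through their opponent NFIL3.

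The promoter stretches of 3 members are shown first, because NPAS2 and PER3 were the members furthest below the control and NR1D2 holds the most clock motifs of the set. The sequences are from RefSeq on GRCh38.p14 and run over the 250 bases before an annotated transcript start, 5′ to 3′ on the strand of the gene. Capitals mark matches to the motifs searched, which were the E-box CACGTG, the E′-box CACGTT, the D-box TTANGTAA, the RORE core TAGGTCA and the TEAD recognition letters CATTCC, known as the MCAT element, each on both strands.
NPAS2, chr2:100819889-100820138, plus strand: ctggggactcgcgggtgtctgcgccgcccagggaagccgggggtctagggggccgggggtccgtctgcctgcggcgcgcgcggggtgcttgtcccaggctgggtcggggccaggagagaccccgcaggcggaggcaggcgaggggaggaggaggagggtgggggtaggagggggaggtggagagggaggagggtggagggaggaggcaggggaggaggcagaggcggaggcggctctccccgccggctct
PER3, chr1:7784041-7784290, plus strand: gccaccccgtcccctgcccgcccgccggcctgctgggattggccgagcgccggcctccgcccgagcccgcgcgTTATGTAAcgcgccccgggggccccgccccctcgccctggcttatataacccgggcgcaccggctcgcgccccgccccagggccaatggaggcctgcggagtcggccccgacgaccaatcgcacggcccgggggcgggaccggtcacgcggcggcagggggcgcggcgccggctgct
NR1D2, chr3:23945871-23946120, plus strand: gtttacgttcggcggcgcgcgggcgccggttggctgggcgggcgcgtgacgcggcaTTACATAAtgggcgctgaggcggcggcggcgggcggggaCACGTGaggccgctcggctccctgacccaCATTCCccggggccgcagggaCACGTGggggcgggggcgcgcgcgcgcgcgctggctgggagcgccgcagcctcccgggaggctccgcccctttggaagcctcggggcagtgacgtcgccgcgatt

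Single sites from other genes are shown as examples, with up to 11 bases on each side. The PER2 and BMAL1 sites were taken because they match clock motifs in members of the opposing arms. Those of TEF and BHLHE41 were taken because these output and repressor genes differed on the arrays.
PER2 E′-box, chr2:238288791-238288818, minus strand: gcgcgcgcggtCACGTTttccactatgt
PER2 D-box, chr2:238288595-238288624, minus strand: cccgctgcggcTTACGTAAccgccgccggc
BMAL1 RORE, chr11:13277809-13277837, plus strand: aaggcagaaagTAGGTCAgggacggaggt
TEF E-box, chr22:41367249-41367276, plus strand: cgcgacagctcCACGTGctgcagctggc
BHLHE41 E-box, chr12:26125069-26125096, minus strand: ggtacgttccgCACGTGagctgggtgct

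All 10 members matched at least 1 RefSeq promoter window of 300 bases (250 before and 50 after the start), 15 windows in all. The NPAS2 stretch printed above is 76.4% G or C and held 0 matches to the 5 motifs, which says only that these letters are not in this window. Positions are those of the first base of a match, counted from the start and negative before it. In PER3 the D-box lay at -177 from the first start. The second NR1D2 start had E-boxes at -155 and -105, a D-box at -194 and, at -126, the only MCAT match in a member window. The E′-box of PER2 lay at -197 and its D-box at -3, while the RORE of BMAL1 lay at 31, just after the start.

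Counted by window, an E-box was held by 2 of the 15 member windows (of PER1 and NR1D2), against 7.26% of all 35116 RefSeq windows. An E′-box was held by 5 of 15 (CLOCK, PER2, CRY1, CRY2 and NR1D1), against 5.34%, a D-box by 3 (PER2, PER3 and NR1D2), against 2.18%, and a RORE by 2 (BMAL1 and CRY2), against 1.85%. The MCAT letters were in 1 of 15 member windows and are common, in 14% of all windows. Windows of 1 gene can overlap, and these shares are descriptions. No matches overlapped among these windows. The windows of 5 output and repressor genes were searched too, and held E-boxes in TEF and BHLHE41, a RORE in NFIL3, the MCAT letters at -233 in HLF and no match in DBP. A match is a run of letters and not a measured binding site.

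**Figure D1:**
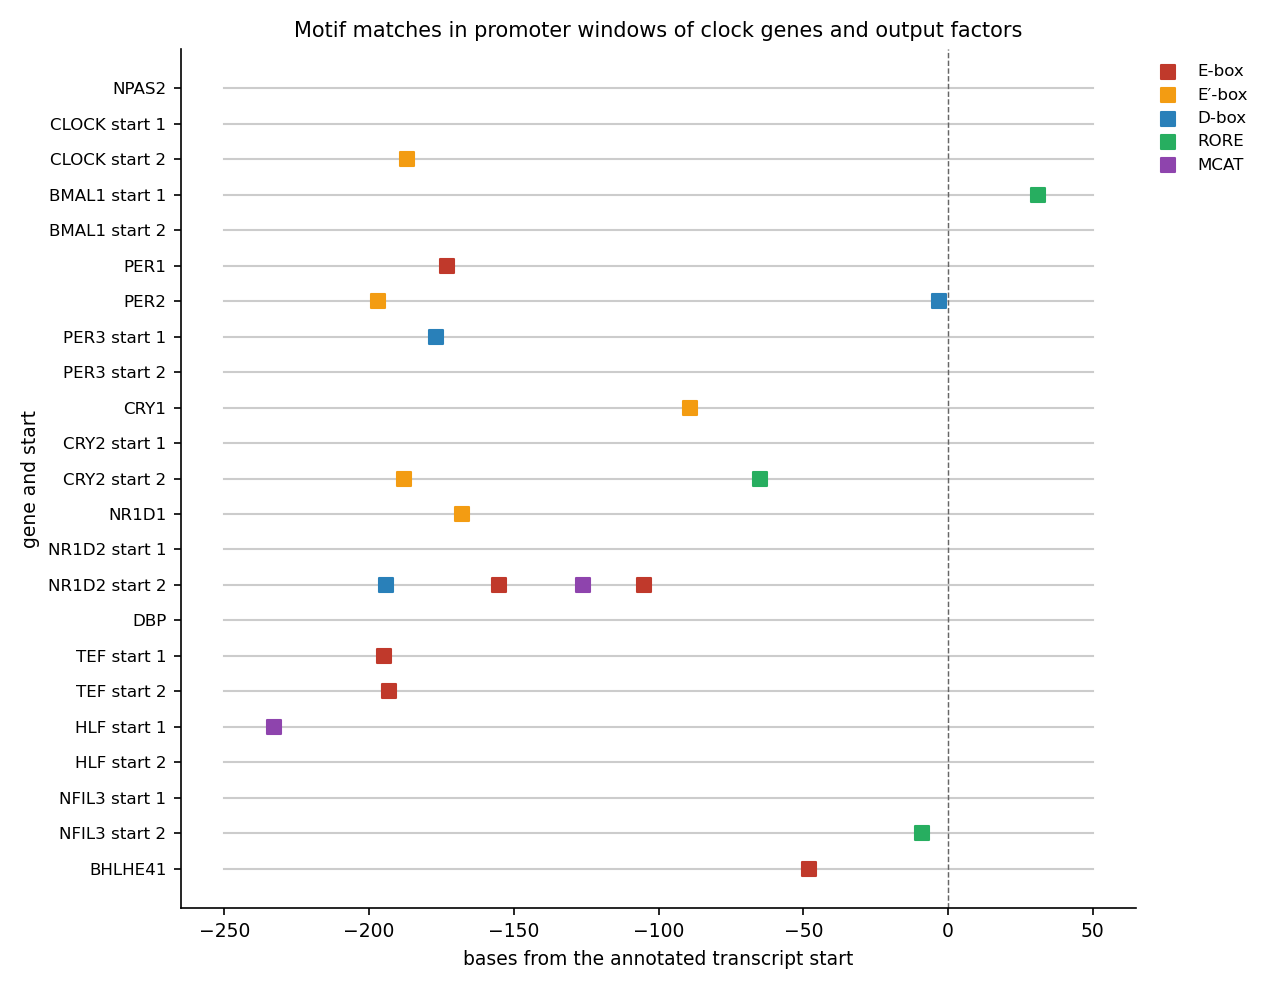
Matches to 5 motifs in the promoter windows of the 10 clock genes and of DBP, TEF, HLF, NFIL3 and BHLHE41, plotted by distance in bases from the annotated transcript start (dashed line), with 1 row per start. The second NR1D2 start carries 4 matches and NPAS2 carries 0.

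The 2 arrays were of similar depth in detected probes. A probe was taken as detected at a deposited detection p-value under 0.01, which held for 39.4% of probes on the knockdown array and 40.0% on the control array, and 11720 genes were detected on at least 1 array. Signals are given as deposited, on a linear scale, or as normalized log2 signal (quantile normalized after a normal-exponential background correction, with an offset of 16), and all differences are knockdown minus control on the log2 scale. A gene with several probes is represented by its brightest. The targeted gene was 5.89-fold lower, with a signal of 167.1 on the knockdown array and 1135 on the control array for TEAD4 (log2 difference -2.56), while its paralogs TEAD1, TEAD2 and TEAD3 differed by -0.23, 0.05 and -0.35. In 2497 genes 2 or more probes passed detection on each array, and the differences of the 2 brightest implied a technical SD of 0.32 per probe, which holds no variation between cultures.

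Of the labelled cell type, 9 of 10 epithelial markers were detected, among them EPCAM, KRT8 and KRT19, while KRT18 was not. CDH1 (0.66) was at least 1.5-fold higher and KRT7 (-0.73) lower. Few gastric markers were: GAST and MUC1 were detected on both arrays and GKN2 on the knockdown array, whereas MUC6, TFF1, TFF2, GKN1, PGC and CLDN18 were not. The 8 fibroblast markers had a summed linear signal of 453 on the knockdown array and 1017 on the control array. Of the 3 detected on both arrays, FBLN1 differed by -1.80 (-0.94 by another probe), COL1A1 by -0.29 and COL1A2 by 0.06, with a median of -0.29. LUM and DCN passed detection on the control array only, the array where they were higher. They were at least 2.41-fold and 1.21-fold lower on the knockdown array. The median over these 5 was -0.65 and ranged from -1.04 to -0.28 over the alternatives, and COL3A1, PDGFRB and THY1 were not detected. The 7 leukocyte markers with probes summed to 2192 on the knockdown array and 1262 on the control array, mostly from CD68 (1.10). ITGAM (-0.63) was at least 1.5-fold lower, MS4A1 was detected on the knockdown array only, and PTPRC, CD3E and CD14 were not detected. Both samples are labelled as the SNU216 line, so these lists are not read as shares of fibroblasts or leukocytes. In bulk RNA a difference in some of the cells and one in all of them cannot be told apart. Why these markers differed was not tested, nor was the part of either list in the clock gene values.

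Across the set, 8 of the 10 members were detected, all of them on both arrays, and 2, PER1 and NR1D1, were detected on neither. The detection filter therefore passed no member through 1 array alone. NPAS2 was at least 2-fold lower, 1 of 8 detected members, and 2.34% of the 11720 detected genes were lower by that much. PER3 joined it at 1.5-fold, giving 2 of 8, against 9.2% of detected genes. The count at least 1.5-fold higher was 0 of 8, against 7.24%, and at least 2-fold higher 0 of 8, against 1.81%. All 8 detected members lay below 0, as did 54.3% of detected genes and 53.9% of those detected on both arrays, and their median was -0.37, against -0.04 over all detected genes. Since the set was chosen with NPAS2 in view, the median of the other 7 is given too, and it was also -0.37.

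NPAS2, the activator that can take the place of CLOCK beside BMAL1, had a deposited signal of 92.9 on the knockdown array and 456.2 on the control array, with a detection p-value of 0 on both. Its normalized log2 signal was 6.79 in the knockdown and 8.83 in the control, a difference of -2.04, or 4.12-fold lower. The knockdown array is the low one, and its signal still passed detection. Of the 10717 genes detected on both arrays, 9 were lower still, so NPAS2 ranked as number 10 from the bottom. The gap is 6.46 times the technical SD per probe. That SD is pooled over bright and dim genes, and the set was chosen on this gap, so the multiple is a description only. The whole value rests on 1 probe, ILMN_1765558, designed on NM_002518, and no other annotated probe of the gene was there to set beside it.

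NPAS2 lay among the dimmer detected genes, where large differences are more frequent. When detected genes were cut into 4 bands of 2930 by mean signal, it fell in the second dimmest, in which 2.87% of genes were at least 2-fold lower, against 0.546% in the brightest band. In the authors' deposited normalized table NPAS2 had 202.7 on the knockdown array and 590.0 on the control array, a log2 difference of -1.54. The 5 genes detected on both arrays whose differences were nearest to that of NPAS2 were BACH2 (-2.07), SERPINB7 (-1.95), TAGLN (-1.94), MGARP (-1.94) and PSG6 (-1.92), with gaps of 0.03 to 0.12. With 2 arrays this likeness is of 1 difference each.

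**Figure D2:**
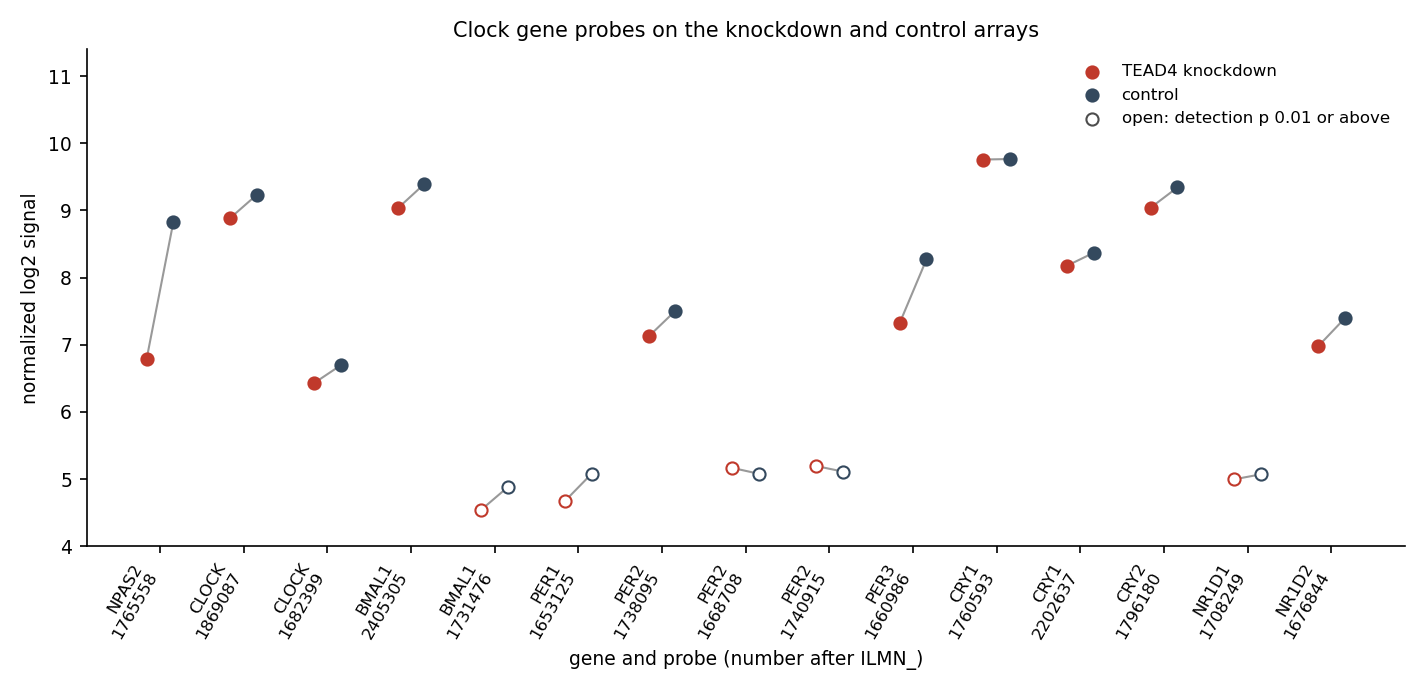
Normalized log2 signal of all 15 probes of the 10 clock genes, with the knockdown array (red) left of the control array (dark blue) and a line joining the 2 values of a probe. Filled points were detected and open points were not. NPAS2 has the steepest line, with 6.79 in the knockdown and 8.83 in the control, and PER3 the next among detected probes. Levels of different probes are not comparable.

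CLOCK, the close relative of NPAS2, and BMAL1, which pairs with either, were much closer on the arrays. CLOCK had signals of 438.0 on the knockdown array and 608.9 on the control array by its brighter probe, a difference of -0.35. A dimmer CLOCK probe with 68.9 on the knockdown array and 89.5 on the control array gave -0.27, so both of its probes were slightly below the control. BMAL1, the shared partner, had 488.2 on the knockdown array and 679.7 on the control array, a difference of -0.37, and its other probe was not detected. Set against each other within the arrays, the NPAS2 difference was lower than that of CLOCK by 1.69 and lower than that of BMAL1 by 1.68. CLOCK and BMAL1 lay 1.11 and 1.16 technical SDs below 0, and 20% and 19% of detected genes were lower than they were.

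The PER genes, whose products are the rhythmic inhibitors of the loop, were not alike. PER3 had a signal of 141.2 on the knockdown array and 302.4 on the control array, which is 1.93-fold lower (log2 signals 7.32 in the knockdown and 8.27 in the control, difference -0.95). It stood just short of 2-fold, at 3.0 technical SDs, with 2.71% of detected genes lower. Its single probe also lay in the second dimmest band, where 10.9% of genes were at least 1.5-fold lower. PER2 had 121.1 on the knockdown array and 171.3 on the control array by the 1 of its 3 probes that was detected, a difference of -0.38. The other 2 PER2 probes were not detected and gave 0.09 and 0.08. For PER1, also an early response gene, the signals were -3.51 on the knockdown array and 14.7 on the control array, with detection p-values of 0.565 in the knockdown and 0.162 in the control, so it was not well above background on either and no fold is given.

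Of the CRY genes, the strongest inhibitors of the CLOCK and BMAL1 pair, CRY1 was the detected member nearest to equal by its brighter probe. CRY1 had 819.4 on the knockdown array and 886.7 on the control array by its brighter probe, a difference of -0.01, and 265.0 on the knockdown array and 326.9 on the control array by the other, a difference of -0.19. CRY2 had 492.9 on the knockdown array and 656.5 on the control array, a difference of -0.30, close to those of CLOCK (-0.35) and BMAL1 (-0.37). CRY1 and CRY2 were within 1 technical SD of 0, which describes these arrays and does not show that the genes are unaffected.

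Of the REV-ERB receptors, NR1D2 had 108.3 on the knockdown array and 156.8 on the control array, a difference of -0.42, at 1.33 technical SDs and with 16% of detected genes lower. NR1D2 was the third lowest detected member, though short of 1.5-fold. That rank depended on the processing, since in the authors' deposited normalized table NR1D2 (-0.28) was above BMAL1 (-0.34) and CLOCK (-0.32). NR1D2 was the only detected member in the dimmest band of genes, where 16.9% were at least 1.5-fold lower. NR1D1 was not well above background, with 11.1 on the knockdown array and 14.3 on the control array and detection p-values of 0.202 in the knockdown and 0.167 in the control. Apart from NPAS2 and PER3, the 6 other detected members lay between -0.42 and -0.01.

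**Figure D3:**
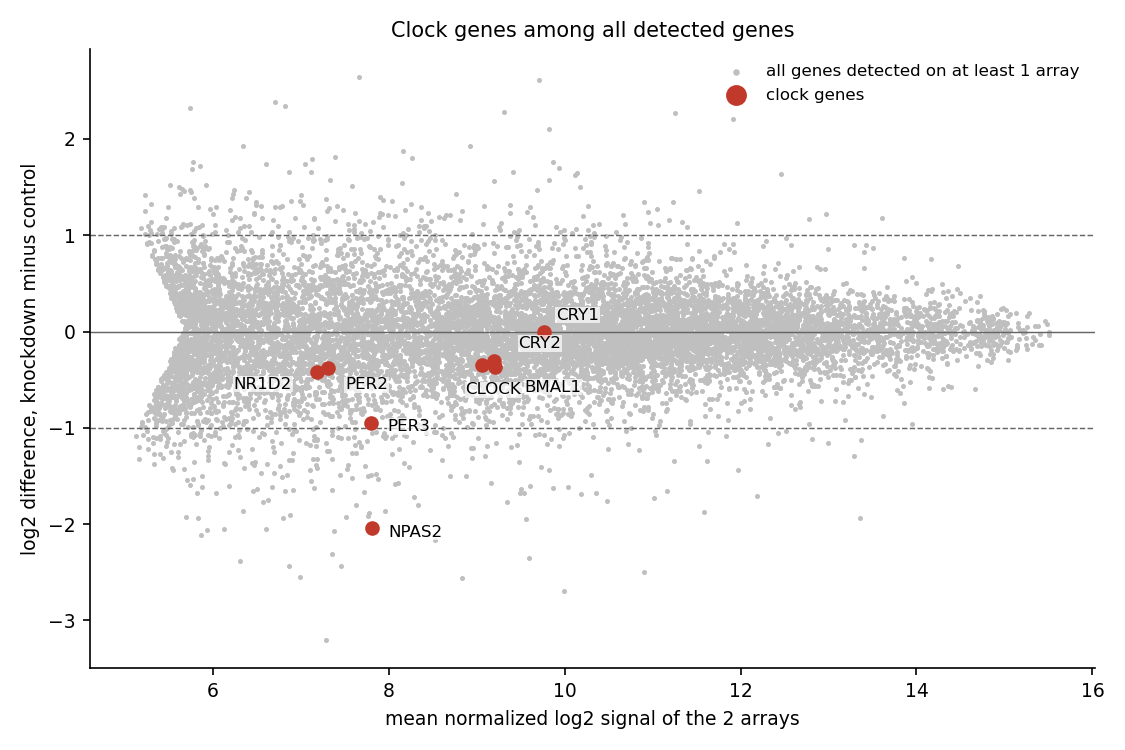
Log2 difference (knockdown minus control) against mean normalized log2 signal for the 11720 detected genes (grey) and the 8 detected clock genes (red), with dashed lines at 2-fold. NPAS2 at -2.04 lies at the lower edge of the cloud, PER3 at -0.95 above the line, and the other 6 members inside the bulk of genes.

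Of the PAR bZIP output factors and their opponent, 3 of 4 were lower on the knockdown array. TEF had a signal of 182.6 on the knockdown array and 378.0 on the control array, 1.86-fold lower (-0.90), and DBP had 38.8 on the knockdown array and 86.1 on the control array, 1.81-fold lower (-0.86), a value of -0.43 and short of 1.5-fold in the authors' deposited normalized table. NFIL3, the repressor that binds the same D-box sequences, had 691.1 on the knockdown array and 1237 on the control array, 1.64-fold lower (-0.72). All 3 were detected on both arrays, and the knockdown array was the low one for each. HLF lay on the other side. It was detected on the knockdown array only, with a bound of at least 1.08-fold higher. The list of 4 thus had 3 members at least 1.5-fold lower and 1 past that fold higher by its normalized difference (0.70), with a median of -0.79, or -0.86 over the 3 detected on both arrays. Among all detected genes 9.2% were at least 1.5-fold lower and 7.24% higher, and in the dimmest band 16.9% and 12.6%. From the authors' deposited normalized table the median was -0.55, and the HLF difference was 0.31.

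Among other regulators of the loop, BHLHE41 (DEC2), a repressor that competes for E-boxes, had 83.2 on the knockdown array and 37.9 on the control array, 1.90-fold higher (0.93), a value that was 0.46 in the authors' deposited normalized table. Its relative BHLHE40 (DEC1) differed by -0.12, the rhythmic deadenylase gene NOCT by -0.08 and BMAL2, a paralog of BMAL1, by -0.27. TIMELESS and its partner TIPIN, which act mainly at replication forks in mammals, differed by 0.32 and 0.35. CIART, RORA and RORB were not detected. Over this list 1 of 6 detected genes was at least 1.5-fold higher and 0 lower, against 7.24% and 9.2% of all detected genes. The median was 0.12.

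The kinases and ubiquitin ligases that set PER and CRY stability were near equal. None of those detected on both arrays reached 1.5-fold, and the median was -0.04 for the 16 detected genes, or 0.06 for the 14 detected on both arrays. The casein kinases CSNK1D and CSNK1E, which phosphorylate PER proteins, differed by -0.21 and 0.29, and a second CSNK1D probe gave 0.29, so its probes disagreed in sign. BTRC and FBXW11, the receptors that bind phosphorylated PER, differed by 0.09 and -0.12, and a second FBXW11 probe gave 0.32, the opposite sign. FBXL21P was detected on the control array only, at least 1.06-fold lower, and counted as 1 of 16 past 1.5-fold by its normalized difference. Among coregulators 2 of 12 were at least 1.5-fold higher, the methyltransferase KMT2A (0.95) and the acetyltransferase EP300 (0.61), and 0 were lower, with a median of -0.14. Of all detected genes, 7.24% were higher and 9.2% lower by that much.

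NPAS2 belongs to the bHLH-PAS proteins, and the other members of that family went both ways. NPAS1, a neuronal relative, was detected on the control array only, with a signal of 25.3 on the knockdown array and 141.8 on the control array, and was at least 2.98-fold lower. SIM2 had 325.7 on the knockdown array and 692.7 on the control array, 1.94-fold lower (-0.95). HIF1A, the oxygen-regulated subunit, differed by 0.79 by its representing probe and 0.61 by another, while a further HIF1A probe detected on both arrays gave -0.12. ARNT, the general partner of the family, differed by -0.38 and the dioxin receptor AHR by 0.33, while a second AHR probe detected on both arrays gave -0.12. In all, 2 of 8 detected genes of the family were at least 1.5-fold lower and 1 higher, against 9.2% and 7.24% of all detected genes. Their median was 0.08.

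Genes commonly listed as clock outputs had a median of 0.27, which was 0.03 with the mean of all probes of a gene, 0.02 with detection at a p-value under 0.05 and 0.01 with no detection filter. Of the 14 detected, 2 were at least 1.5-fold higher and 1 lower, against 7.24% and 9.2% of all detected genes. KLF10, a zinc finger repressor, had 122.0 on the knockdown array and 36.2 on the control array, 2.73-fold higher (1.45), although another of its probes, detected on the knockdown array only, differed by 0.26. PPARA was detected on the knockdown array only, the array where it was higher, and its lower limit was 1.21-fold. It counted as past 1.5-fold by its normalized difference, so KLF10 was the only gene detected on both arrays that was at least 1.5-fold higher. PDK4, a brake on glucose oxidation, was 1.60-fold lower (-0.67). The cell cycle kinase WEE1 differed by -0.12 and the NAD salvage enzyme NAMPT by 0.39. The list has no direction of its own, since it holds targets of opposing arms of the loop.

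Heme and NAD are both known to bear on clock proteins, heme as the ligand of the REV-ERB receptors and NAD as the cofactor of the deacetylase SIRT1. Of 11 detected heme genes 2 were at least 1.5-fold higher, the heme oxygenase HMOX1 (0.85) and the synthesis enzyme CPOX (0.65), and 1 lower, the biliverdin reductase BLVRB (-0.97), with a median of -0.14. ALAS1, which starts heme synthesis, differed by -0.29, and by 0.19 with another probe. Of 11 detected NAD genes 1 was higher, the methyltransferase NNMT (1.10), and 1 lower, NMNAT2 (-0.84), with a median of -0.02 and SIRT1 at -0.02. Of 8 detected glucocorticoid-induced genes, a list that also holds PER1, 2 were lower, SGK1 (-0.74, or -0.52 by another probe) and ZBTB16 (-0.61), and 0 higher. FKBP5 differed by 0.07, and the median of the list was -0.17. Beside these heme, NAD and glucocorticoid counts, 7.24% of all detected genes were at least 1.5-fold higher and 9.2% lower. Outside the members, the 1.5-fold calls of NMNAT2 (-0.50), BLVRB (-0.55), ZBTB16 (-0.29), CPOX (0.57), EP300 (0.46), PDK4 (-0.47), PPARA (0.32), FBXL21P (-0.38), DCN (-0.28), ITGAM (-0.42) and MS4A1 (0.36) were lost in the authors' deposited normalized table, like those of DBP, HLF and BHLHE41, at the log2 differences given in brackets.

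**Figure D4:**
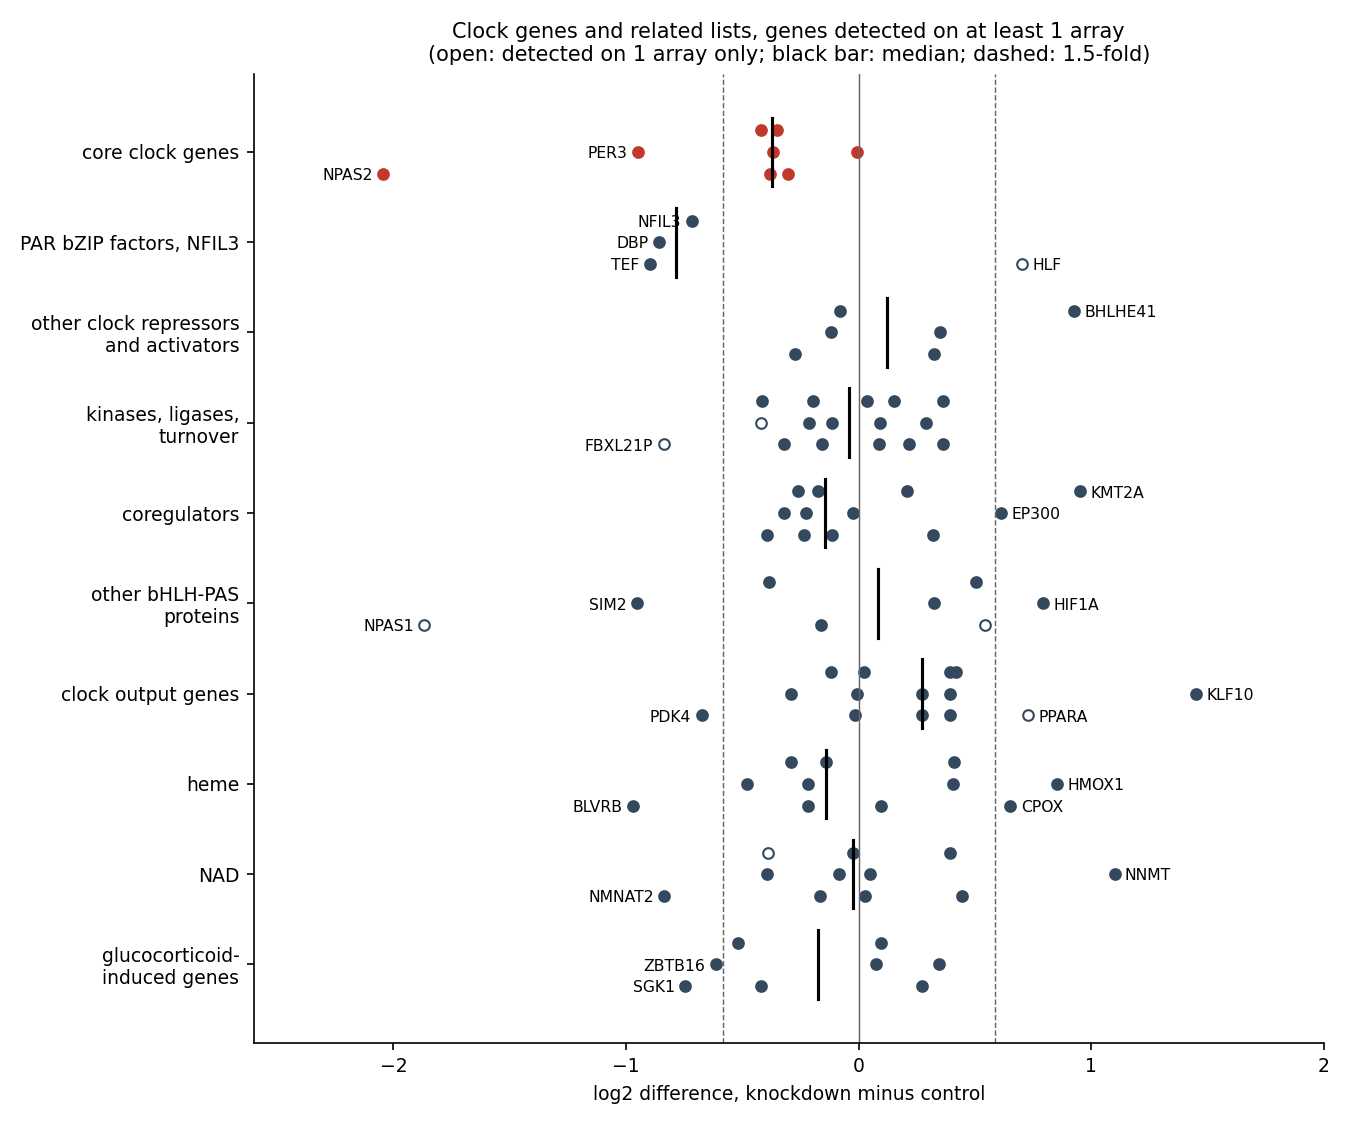
Log2 difference (knockdown minus control) of each gene detected on at least 1 array in the clock gene set (red) and in 9 related lists (dark blue), with open points for genes detected on 1 array, a black bar at each median and dashed lines at 1.5-fold. The clock genes sit at or below 0 with a median of -0.37, and the PAR bZIP factors at -0.79 with HLF apart on the higher side.

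No alternative processing turned the sign of a detected clock gene. Over 11 alternatives NPAS2 ranged from -2.21 to -1.54 and PER3 from -1.02 to -0.72. The detection filters and the choice of probe by detection p left the difference of every member at its main value. Averaging probes cannot move NPAS2 or PER3, which have a single probe. PER3 passed 2-fold with an offset of 1. It also did so when the deposited signals had no further background correction and those under 1 were set to 1. PER2 ranged from -0.43 to -0.07, the last from averaging its detected probe with the 2 that were not. CLOCK ranged from -0.44 to -0.27, its dimmer probe included, and CRY1 from -0.19 to -0.01.

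**Figure D5:**
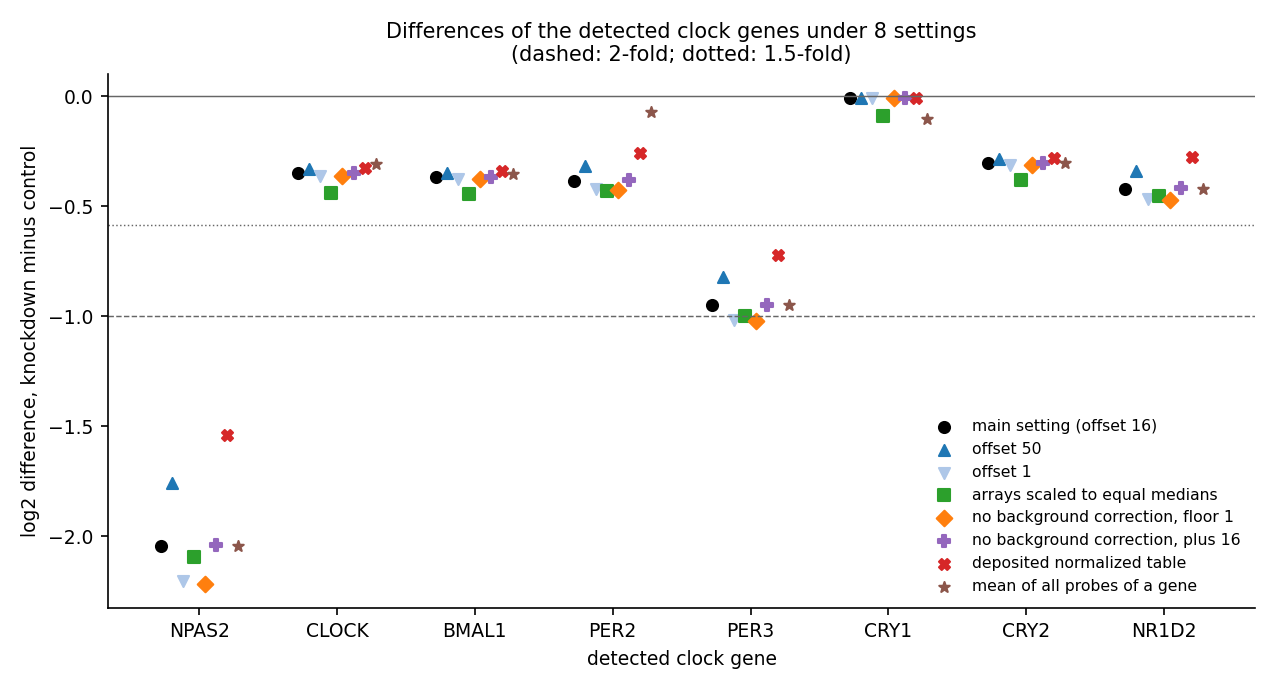
Log2 difference (knockdown minus control) of the 8 detected clock genes under the main setting and 7 alternatives, with 1 symbol per setting, a dashed line at 2-fold and a dotted line at 1.5-fold. NPAS2 stays past 2-fold and PER3 past 1.5-fold in each, and the other 6 genes stay between 0 and the dotted line.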

How the data were processed

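Total RNA of 2 SNU216 samples was amplified into labelled cRNA, per the labels' protocols, and read on 1 array each. Deposited probe intensity values are linear and, since 12895 probes on the knockdown array and 12861 on the control array are below 0, were taken as background-subtracted, and each is paired with a deposited detection p-value, per the file headers. The authors also deposited normalized intensity on a linear scale, whose 2 columns share nearly the same distribution (medians 118.7 and 118.7); how it was made, and with which software, was not given in the sources used here.

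All probes entered the neqc step of limma 3.58.1 in R 4.3.3 with an offset of 16, which gave the normalized signals; the steps were tested on simulated data. Adding 100 to every signal moved no difference by more than 3.55e-15. That outcome was fixed in advance, because the step estimates background from the signals and their detection p-values, so a constant cancels. Symbols came from the platform annotation, with 30113 probes of 1 symbol, 8 of several and 17202 not listed; 30074 matched RefSeq by Entrez identifier and 0 symbols changed. Some genes of the lists are not reported here.

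A call needed 2-fold or 1.5-fold and detection on the brighter array, among genes detected on at least 1 array. For a probe detected on 1 array the fold is a lower limit, in which the dim value was replaced by the lowest detected signal of its array where that was higher. The rule for named genes took all members, TEAD4 and its paralogs, genes of each list past 1.5-fold (otherwise up to 2 of the brightest) and the 5 genes nearest NPAS2. Other genes of the lists that are named as examples were chosen after their values were seen. Members and lists were chosen with earlier results of these data known. The number of arrays limits the precision. Promoter windows were searched by exact letters on both strands.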

Additional observations from a re-analysis of the deposited data

How the results depend on the processing

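The 11 alternatives changed the offset (50 or 1), the scaling (equal medians), the background step, the source table (the authors' normalized values), the probe per gene and the detection filter; the other detected probes of CLOCK and CRY1 were also taken alone. The 8 detected members kept a difference below 0 under each, and the count at least 1.5-fold lower stayed at 2. The count at least 2-fold lower was 2 with an offset of 1 and 2 without further background correction with a floor of 1, against 1 otherwise. NPAS2 fell outside 1 technical SD of its main value in the deposited normalized table alone (-1.54). PER1, not detected, gave -0.84 with an offset of 1, -3.85 with the floor of 1 and -0.93 without further correction plus 16. In the last of these, signals below 0 were set to 0 before 16 was added. The spread shows only how little a value near background is fixed.

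Over all genes, those at least 2-fold lower numbered 274, against 147 with an offset of 50, 463 with an offset of 1, 511 with the floor of 1 and 105 in the deposited table; those higher numbered 212, against 105, 361, 399 and 77. At 1.5-fold the counts were 1078 lower and 848 higher, against 710 and 550 with an offset of 50 and 530 and 448 in the deposited table. Medians of the NAD, kinase, bHLH-PAS, accessory regulator, heme and leukocyte lists took the other sign under 1 or more alternatives, and those of the clock output, glucocorticoid and PAR bZIP lists reached 0.01, -0.42 and -0.55. The cause was not tested. No paired analysis was possible because a single array stands for a group, and for the same reason no replicate could be left out. Of the results on members, 172 of 178 values kept within a set limit. The limit was the technical SD for a gene, 0.112 for the median of the set and 1.5 times for counts. Part of this was fixed in advance. Detection filters do not enter the difference of a gene, the probe chosen by detection p was the same, and averaging cannot move a single-probe gene.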
